A study of Mus musculus with 4 samples.

Results

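The genes described here are 10 transcription regulators of Schwann cell state, measured by RNA sequencing in mouse sciatic nerve. They were taken by symbol from the deposited table, which holds 24062 gene symbols: 7 lineage and promyelin regulators (Sox10, Tead1, Nfatc4, Zeb2, Pou3f1, Egr2 and Nab2) and 3 regulators of the immature and repair states (Sox2, Jun and Runx2). All 10 were found, and all 10 passed the filter of 1 CPM (counts scaled to a common library size) in at least 1 library. The nerves came from 4-month-old C57BL/6 mice of 4 genotypes, with 1 library per genotype. WT mice carried neither mutation. PKO mice were P2RY14-/-, without the receptor P2RY14, which senses UDP-sugars and signals through G proteins. NF1 mice carried floxed Nf1 (Nf1fl/fl) with Dhh Cre, a driver active in the Schwann cell lineage, so that Nf1, encoding the RAS GTPase-activating protein neurofibromin, is targeted in that lineage and left intact in other cells of the nerve. PKO-NF1 mice combined P2RY14-/- with Nf1fl/f and Dhh Cre. The number and sex of the animals behind each library are not given in the labels, and the NF1 library is labelled a repeat, so that any batch it belongs to and its genotype cannot be told apart.

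Schwann cells pass through ordered states that these factors control. SOX10, an SRY-box factor, is needed at every stage of the lineage. Together with POU3F1 (Oct6) it drives promyelinating cells to switch on EGR2 (Krox20), the central activator of peripheral myelin genes, which works with NAB cofactors. NFATC4 acts with SOX10 downstream of calcineurin, TEAD1 is a DNA-binding partner of the Hippo effectors YAP and TAZ, and ZEB2 represses inhibitors of differentiation. SOX2 holds cells in the immature state, JUN directs the repair state after nerve injury, and RUNX2 is a runt-domain factor also known from bone.

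The WT library held 14111201 counts, PKO 20362685, NF1 19064779 and PKO-NF1 17771101. Values below are CPM scaled with edgeR's TMM factors, where a gene with no count could be at up to 3 counts, or 0.152 to 0.183 CPM. Ratios between libraries carry 95% intervals that cover counting error only, with no replicate check. A call of higher or lower needed a ratio of 2-fold or more with an interval that left out 1. The libraries differed in other ways: 14 skeletal muscle markers took 5.87% of counts in NF1 and 0.0102% to 0.119% elsewhere, and ribosomal protein genes took 3.96% in WT, 7.26% in NF1, 12% in PKO-NF1 and 15.5% in PKO. With muscle, adipocyte and ribosomal protein genes left out of the scaling, the number of regulators called was the same in every pair. That setting changes only the scale, so it cannot show what reads from other tissue add to a regulator's count. P2ry14 was at 37.6 CPM in WT, 65.3 in NF1, 10.9 in PKO and 10.6 in PKO-NF1, so that reads of the gene were still counted in both libraries labelled P2RY14-/-. Nf1, counted over the whole gene, was at 72.8 CPM in WT, 63.4 in NF1, 41.0 in PKO and 20.5 in PKO-NF1, so its level sets the NF1 library little apart from WT and is lower in PKO than in NF1. A count over the whole gene does not show loss of the floxed part in 1 cell type. Markers of the labelled tissue were present in all 4 libraries: all 14 Schwann cell lineage markers were at 1 CPM or more in each.

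Sox10 had the highest level of these regulators when CPM was divided by the length of the longest transcript. Averaged over the 4 libraries it stood at 56.7 CPM per kb, followed by Jun at 26.9, Zeb2 at 23.2, Nab2 at 17.4, Egr2 at 17.2, Tead1 at 10.6, Nfatc4 at 5.43, Sox2 at 5.24, Pou3f1 at 4.09 and Runx2 at 0.659 CPM per kb. Neighbours in that order changed places between libraries. Egr2 was below Nab2 in WT (21.5 and 23.4 CPM per kb) and above it in NF1 (13.7 and 11.5). In the PKO-NF1 library Jun, at 26.3 CPM per kb, was above Sox10, at 24.4.

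**Figure D1:**
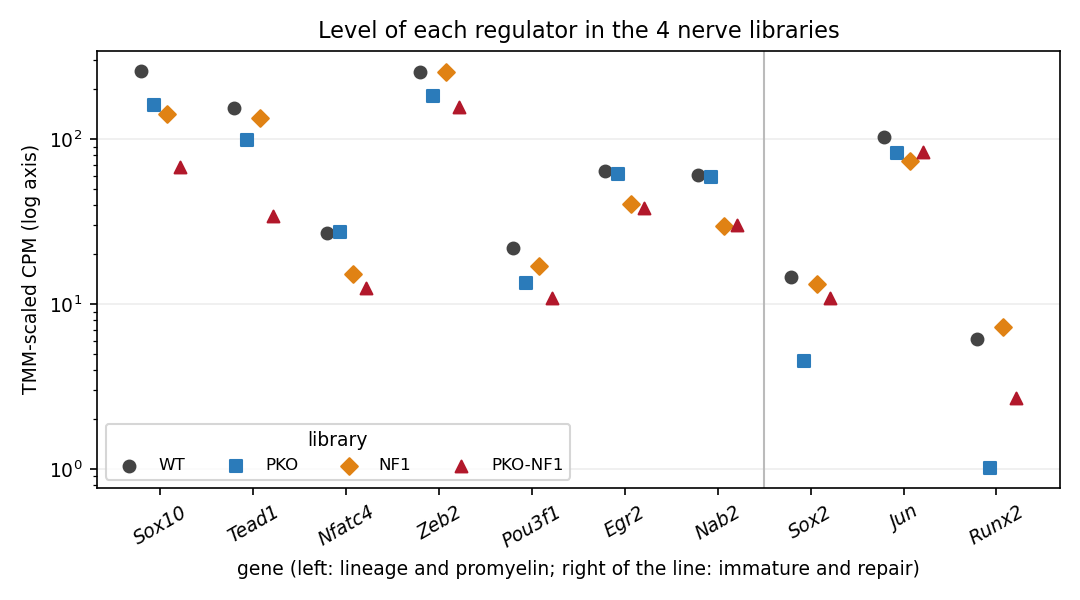
TMM-scaled CPM on a log axis for each of the 10 regulators, with 1 point per library (circle WT, square PKO, diamond NF1, triangle PKO-NF1) and no error bars, since each genotype has 1 library. Sox10 and Tead1 are lowest in PKO-NF1 (67.9 and 34.2 CPM), Egr2 and Nab2 are lower in both Nf1-mutant libraries than in both others, and Sox2 and Runx2 are lowest in PKO (4.50 and 1.01 CPM).

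EGR2 and the pair SOX2 and JUN are known to oppose each other in Schwann cells, so the sequence before a start site of each is shown. The bases come from RefSeq (GRCm38.p6) and end just before the start site. They were searched on both strands for TEAD (GGAATG), SOX (ACAAAG and ACAATG), AP-1 (TGANTCA) and EGR (GCGNGGGCG) letters, and matches are in capitals. The Egr2 stretch, at chr10:67537316-67537565 on the plus strand, lies before 1 of the 5 listed Egr2 start sites and holds a TEAD match. It was picked for print because it holds a match, and the windows of the other Egr2 start sites hold none. The Sox2 stretch, at chr3:34649745-34649994 on the plus strand, holds a SOX match, and the Jun stretch, at chr4:95052223-95052472 on the minus strand, holds none.
Egr2: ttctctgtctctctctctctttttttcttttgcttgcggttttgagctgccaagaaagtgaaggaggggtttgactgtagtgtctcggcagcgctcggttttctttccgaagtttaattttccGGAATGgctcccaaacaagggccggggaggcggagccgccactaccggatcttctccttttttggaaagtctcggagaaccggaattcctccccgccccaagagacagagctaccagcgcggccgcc
Sox2: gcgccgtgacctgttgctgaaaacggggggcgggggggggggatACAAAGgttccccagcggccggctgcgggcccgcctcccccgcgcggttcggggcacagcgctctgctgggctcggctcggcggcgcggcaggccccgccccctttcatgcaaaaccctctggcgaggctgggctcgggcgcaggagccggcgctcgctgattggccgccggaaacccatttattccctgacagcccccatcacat
Jun: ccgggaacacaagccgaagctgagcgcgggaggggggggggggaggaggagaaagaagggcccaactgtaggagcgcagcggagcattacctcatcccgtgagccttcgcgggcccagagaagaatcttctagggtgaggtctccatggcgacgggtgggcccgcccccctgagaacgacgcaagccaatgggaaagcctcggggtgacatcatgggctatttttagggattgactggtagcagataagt
RefSeq windows of 300 bases (250 before to 50 after the start site) were listed for 7 of the 10 genes, 14 windows in all. TEAD letters were in 2 of the 14, in Egr2 and Zeb2, against 14.7% of 32851 windows of all genes, and the ACAAAG letters in 2, in Sox2 and Zeb2, against 18.7%. AP-1 letters were in 1, in Zeb2, against 7.81%. ACAATG (12.6% of all windows) and the EGR letters (5.55%) were in none of the 14. A match describes letters, not binding, and a stretch without a match lacks only the exact letters searched, not related forms of a site.

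Nf1 status was compared in 2 pairs that share no library: NF1 vs WT, with no P2ry14 mutation, and PKO-NF1 vs PKO, both P2RY14-/- by label. Sox10, Egr2, Nab2 and Nfatc4 were lower in the Nf1-mutant library of both pairs, by 1.57-fold to 2.38-fold. Sox2 and Runx2 were higher in PKO-NF1 than in PKO, and their NF1 to WT ratios had intervals that included 1. By the 2-fold rule 1 regulator was lower and none higher in NF1 vs WT, where 16.7% of 14700 genes were called, 6.31% lower and 10.4% higher. Between PKO-NF1 and PKO 3 were lower, where 9.7% of genes were, and 2 higher, where 5.2% were (14.9% in both directions). At 1.5-fold, 4 of the 10 were lower in both pairs, against 9.19% of all genes, with 4 lower in NF1 vs WT (16.7% of genes) and 5 between PKO-NF1 and PKO (20.1%). Higher at 1.5-fold were 0 in the first pair, where 19.2% of genes were, and 2 in the second, where 15.6% were. The median log2 ratio of the 10 was -0.42 for NF1 vs WT and -0.50 for PKO-NF1 vs PKO, where the medians of all genes were -0.001 and -0.002. With length and GC trends removed, the medians of the 10 were -0.235 and -0.406, and those of all genes -0.011 and -0.057.

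Nab2, a cofactor that binds EGR proteins and can repress or support their targets, separated the libraries by Nf1 status. It was at 60.4 CPM in WT and 58.9 in PKO, and at 29.7 in NF1 and 30.3 in PKO-NF1. Both Nf1-mutant libraries were below both others, as for 4 of the 10 regulators (Sox10, Nfatc4, Egr2 and Nab2) and 20.5% of all genes. The Nab2 ratio of NF1 to WT was 2.03-fold lower (95% interval 1.83 to 2.25), and that of PKO-NF1 to PKO 1.94-fold lower (1.74 to 2.17). The gene (ENSMUSG00000025402; chromosome 10, 127660918 to 127668568, minus strand of GRCm38) overlaps Stat6 and Nemp1 on the opposite strand. How the counting treated strand was not stated in the labels or notes, so reads of overlapping genes may be shared. For Stat6 the first ratio was 1.6-fold lower (1.49 to 1.72) and the second 1.41-fold lower (1.31 to 1.52).

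Egr2 (ENSMUSG00000037868; chromosome 10, 67535475 to 67542188, plus strand) overlaps no other annotated gene and was likewise lower in both Nf1-mutant libraries than in both others. It was at 63.6 CPM in WT and 61.2 in PKO, against 40.5 in NF1 and 38.3 in PKO-NF1. The ratio was 1.57-fold lower in NF1 vs WT (1.43 to 1.72), and between PKO-NF1 and PKO it was 1.6-fold lower (1.45 to 1.77), under the 2-fold rule in both. The log2 ratios of the pairs differed by -0.025 (counting interval -0.22 to 0.17). By root mean square difference of centred log2 CPM over the 4 libraries, among 11915 genes, the patterns most like that of Egr2 were Fzd2 (0.015), Adamts2 (0.0241) and Ncstn (0.029).

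Nfatc4, the NFAT factor that binds regulatory elements with SOX10 (ENSMUSG00000023411; chromosome 14, 55823144 to 55833943, plus strand), was at 27.0 CPM in WT and 27.2 in PKO, against 15.3 in NF1 and 12.5 in PKO-NF1. It was 1.77-fold lower in NF1 vs WT (1.53 to 2.05), and between PKO-NF1 and PKO it was 2.17-fold lower (1.84 to 2.57), and the latter met the rule. Nfatc4 and Nab2 were the closest pair among the 10 regulators other than Runx2, whose mean level was too low for the comparison, with a root mean square log2 difference of 0.11 over the 4 libraries. Calcineurin is the phosphatase that activates NFAT factors. Its catalytic subunit gene Ppp3cb was 2.05-fold higher in NF1 vs WT (1.92 to 2.20) and 1.70-fold higher in PKO-NF1 vs PKO (1.57 to 1.84). Another catalytic subunit gene, Ppp3ca, was called in neither pair, at 53.8 CPM in WT, 72.0 in NF1, 49.8 in PKO and 53.7 in PKO-NF1. The regulatory subunit gene Ppp3r1 was 1.47-fold (1.37 to 1.58) and 1.98-fold higher (1.84 to 2.13) in the same pairs. With length and GC trends removed Ppp3cb was 1.62-fold and 1.14-fold higher, no longer called, and Ppp3r1 1.10-fold and 1.25-fold.

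Sox10 (ENSMUSG00000033006; chromosome 15, 79154908 to 79165240, minus strand) was low with either mutation and lower with both. It was at 260.1 CPM in WT and 161.5 in PKO, against 141.1 in NF1 and 67.9 in PKO-NF1. In NF1 vs WT it was 1.84-fold lower (1.76 to 1.93) and in PKO-NF1 vs PKO 2.38-fold lower (2.22 to 2.55). PKO-NF1 was 3.83-fold below WT (3.59 to 4.09), and 2.35-fold with length and GC trends removed. The genes whose pattern was most like that of Sox10 were Ankrd13b, Med13l and Ptpn23, with root mean square log2 differences of 0.02, 0.028 and 0.0311.

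Tead1 (ENSMUSG00000055320; chromosome 7, 112679318 to 112906807, plus strand) was far below the other libraries in PKO-NF1 alone. It was at 154.0 CPM in WT, 134.2 in NF1, 98.3 in PKO and 34.2 in PKO-NF1. In NF1 vs WT it was 1.15-fold lower (1.09 to 1.21), and in PKO-NF1 vs PKO 2.88-fold lower (2.61 to 3.17). The log2 ratio of the second pair was below that of the first by 1.33 (difference -1.33, counting interval -1.48 to -1.17). Of its paralogues Tead4 was 4.42-fold lower in PKO-NF1 vs PKO (3.06 to 6.56) and at 8.85 CPM in WT against 6.09 in NF1. Tead3 was lower in the Nf1-mutant library of both pairs, at 46.3 CPM in WT, 27.7 in NF1, 23.2 in PKO and 13.9 in PKO-NF1. For Tead2 the PKO library was the low one, at 12.1 CPM, against 24.1 in WT, 20.1 in NF1 and 23.9 in PKO-NF1. The coactivator gene Wwtr1, encoding TAZ, was at 178 CPM in WT, 169 in NF1, 148 in PKO and 173 in PKO-NF1.

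Pou3f1 and Zeb2 differed less with Nf1 status. Pou3f1 (ENSMUSG00000090125; chromosome 4, 124656807 to 124660655, plus strand), whose product marks promyelinating cells, was at 21.8 CPM in WT and 13.5 in PKO, against 16.9 in NF1 and 10.8 in PKO-NF1. That was 1.28-fold lower in NF1 vs WT (1.10 to 1.49), and between PKO-NF1 and PKO it was 1.25-fold lower (1.02 to 1.53). Zeb2 (ENSMUSG00000026872; chromosome 2, 44983632 to 45117395, minus strand) was at 253.8 CPM in WT, 256.2 in NF1, 182.3 in PKO and 156.0 in PKO-NF1. The PKO to WT ratio was 1.39-fold lower (1.33 to 1.46) and the PKO-NF1 to NF1 ratio 1.64-fold lower (1.57 to 1.72). With length and GC trends removed these were 1.10-fold and 1.11-fold lower. An antisense gene, Zeb2os, overlaps Zeb2. Zeb2os was 2.39-fold higher in PKO vs WT (1.98 to 2.90) and 1.26-fold higher in PKO-NF1 vs NF1 (1.08 to 1.46). With the trends removed it was 1.54-fold higher and 1.13-fold lower. Macrophages also express Zeb2, and all 14 macrophage markers were at 1 CPM or more in each library, with summed levels of 1118 CPM in WT, 1089 in NF1, 1691 in PKO and 1935 in PKO-NF1. These sums were high in the libraries where Zeb2 was low, and their part in the Zeb2 level was not tested.

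The 3 immature and repair regulators differed from one another. Sox2 (ENSMUSG00000074637; chromosome 3, 34650405 to 34652461, plus strand) was at 14.6 CPM in WT, 13.1 in NF1, 10.9 in PKO-NF1 and 4.50 in PKO. The PKO library was the low one, and the other 3 lay between 10.9 and 14.6 CPM. Sox2 was 2.41-fold higher in PKO-NF1 vs PKO (1.84 to 3.18) and 1.11-fold lower in NF1 vs WT (0.93 to 1.33), and the log2 ratios of the pairs differed by 1.42 (0.965 to 1.88). Sox2 lies inside the noncoding gene Sox2ot on the same strand, and Sox2ot was 1.90-fold higher in PKO-NF1 vs PKO (1.72 to 2.11) and 1.10-fold higher in NF1 vs WT (1.00 to 1.21).

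Runx2 (ENSMUSG00000039153; chromosome 17, 44495987 to 44814797, minus strand) had the smallest counts, 104 in WT, 142 in NF1, 44 in PKO-NF1 and 18 in PKO. These were 6.14, 7.21, 2.68 and 1.01 CPM in that order, low in both libraries without P2ry14. The gene was 2.65-fold higher in PKO-NF1 vs PKO (1.5 to 4.88) and 1.17-fold higher in NF1 vs WT (0.91 to 1.53). Supt3, which overlaps it on the opposite strand, was at 10.3, 9.95, 14.4 and 14.6 CPM in the same order. Of the bone and cartilage markers, cell types in which Runx2 is abundant, 2 of 8 had no count in WT, 3 in NF1, 3 in PKO and 1 in PKO-NF1; the summed level of all 8 was 58.4 to 65.7 CPM in every library.

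Jun (ENSMUSG00000052684; chromosome 4, 95049034 to 95052222, minus strand) varied least of the 10, with its highest level 1.40 times its lowest. A noncoding gene, Junos, overlaps it on the opposite strand. Jun was at 103.0 CPM in WT, 84.0 in PKO-NF1, 82.3 in PKO and 73.6 in NF1. Jun was 1.40-fold lower in NF1 vs WT (1.30 to 1.5) and 1.02-fold higher in PKO-NF1 vs PKO (0.95 to 1.10). Jun is also an immediate early gene that tissue handling can induce. Of 18 other immediate early genes measured, 4 were lower in NF1 vs WT (Fosb, Klf2, Klf4 and Zfp36) and none higher, and in PKO-NF1 vs PKO Fos and Btg2 were higher and Fosb lower, where 6.31% of all genes were lower in the first pair and 9.7% lower and 5.2% higher in the second. The median log2 ratio of that list was -0.44 for NF1 vs WT and 0.28 for PKO-NF1 vs PKO, and its part in the Jun level was not tested. The nearest patterns to that of Jun were Chtf8, Tbc1d25 and Fut11, at root mean square log2 differences of 0.0101, 0.0167 and 0.0217.

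**Figure D2:**
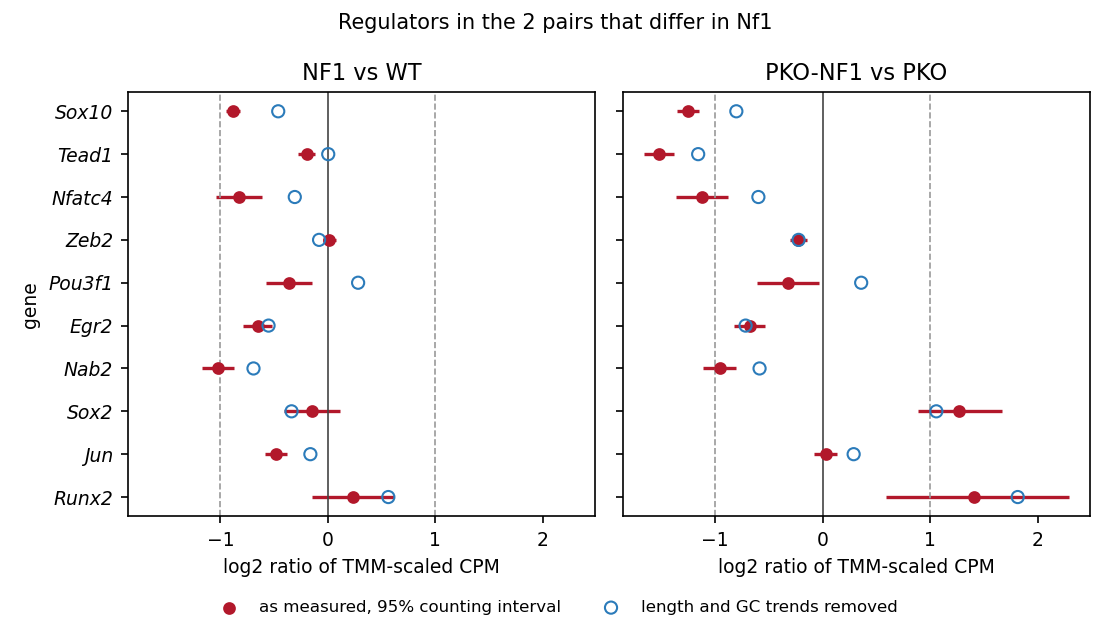
Log2 ratio of TMM-scaled CPM for each regulator in NF1 vs WT (left) and PKO-NF1 vs PKO (right). Filled points with lines are measured ratios with 95% counting intervals, open points have transcript length and GC trends removed, and dashed lines mark 2-fold. Sox10, Nfatc4, Egr2 and Nab2 lie left of 0 in both panels, while Tead1, Sox2 and Runx2 are away from 0 mainly on the right.

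Ratios moved with the GC content of transcripts in both pairs. Genes in the lowest GC decile had a median log2 ratio of 0.46 for NF1 vs WT and 0.55 for PKO-NF1 vs PKO. The highest decile had medians of -0.41 and -0.58. Of the 10 regulators 8 had transcripts above the median GC content of 49.7%, with Sox10 at 61.8%, Nab2 at 60.1%, Nfatc4 at 58.8% and Egr2 at 51.4%, and Tead1 below it at 46.5%. With splines in length and GC subtracted, Sox10 was 1.38-fold lower in NF1 vs WT and 1.74-fold lower in PKO-NF1 vs PKO, Nab2 1.62-fold and 1.5-fold, Egr2 1.47-fold and 1.64-fold, and Nfatc4 1.24-fold and 1.51-fold. All 4 stayed on the lower side in both pairs and none reached 2-fold. Only Nab2 was still at least 1.5-fold lower in both pairs, since Sox10, Egr2 and Nfatc4 fell under 1.5-fold in NF1 vs WT. The share of all genes at 1.5-fold with the trends removed was not computed. Tead1 (2.23-fold lower), Sox2 (2.08-fold higher) and Runx2 (3.52-fold higher) met the rule in PKO-NF1 vs PKO, and no regulator met it in NF1 vs WT. Pou3f1 turned to the higher side in both pairs, 1.22-fold and 1.28-fold.

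The genes that these regulators control were read from lists drawn up with the regulators. Of 20 myelin genes known as targets of SOX10 and EGR2, 14 were lower and none higher in NF1 vs WT (median log2 ratio -1.24), and 9 were lower and 1 higher in PKO-NF1 vs PKO (median -0.68). Over all genes 6.31% were lower and 10.4% higher in the first pair, and 9.7% and 5.2% in the second. Fa2h, which makes hydroxylated myelin lipids, was 5.04-fold lower in NF1 vs WT (4.52 to 5.63), and between PKO-NF1 and PKO it was 3.21-fold lower (2.94 to 3.51). Prx, a protein of the Schwann cell membrane scaffold, was 2.90-fold (2.84 to 2.96) and 4.57-fold lower (4.47 to 4.66). Pmp2, a myelin fatty acid binding protein, was the higher gene, 3.67-fold in PKO-NF1 vs PKO (3.57 to 3.77).

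Schwann cell lineage markers had lower summed levels in the Nf1-mutant library of both pairs. The 14 markers summed to 9131 CPM in WT, 4226 in NF1, 10974 in PKO and 7094 in PKO-NF1. Their median log2 ratio was -0.54 in NF1 vs WT (1 higher and 1 lower) and 0.16 in PKO-NF1 vs PKO (2 higher and 1 lower). S100b, a calcium-binding protein of the lineage, was at 1013 CPM in WT and 1044 in NF1, and was 1.83-fold higher in PKO-NF1 vs PKO (1.80 to 1.86). The neuregulin receptor gene Erbb3, a SOX10 target, was 1.80-fold lower in NF1 vs WT (1.68 to 1.93), and between PKO-NF1 and PKO it was 1.96-fold lower (1.76 to 2.19). In whole nerve, fewer cells of a type and less RNA per cell cannot be told apart. Endothelial markers were lower in both pairs, 7 and 6 of 12, and adipocyte markers 9 and 5 of the 11 measured, where 6.31% and 9.7% of all genes were lower. The part of such differences in cell content in the regulators' ratios was not tested.

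Targets of the other regulators are read against the same shares of all genes, 6.31% lower and 10.4% higher in NF1 vs WT and 9.7% and 5.2% between PKO-NF1 and PKO. Of 11 measured genes known to be induced by JUN in repair cells, 2 were lower in NF1 vs WT (Gfap and Cdh2; median log2 ratio -0.45), and in PKO-NF1 vs PKO Btc and Ucn2 were higher and Cdh2 lower (median 0.27). Btc, an EGF receptor ligand, was at 9.38 CPM in WT, 13.96 in NF1, 2.47 in PKO and 10.7 in PKO-NF1. Ucn2 had 6 counts in PKO and 83 in PKO-NF1. Of 9 measured Hippo targets, 3 were lower in NF1 vs WT (Cyr61, Amotl2 and Ajuba; median -0.71) and 1 in PKO-NF1 vs PKO (Amotl1; median -0.525, and -0.14 with length and GC trends removed). Among 5 genes that ZEB2 represses, Sox2 and Ednrb, the endothelin receptor of immature Schwann cells, were higher in PKO-NF1 vs PKO, and Hey2 and Cdh1 were lower in NF1 vs WT.

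**Figure D3:**
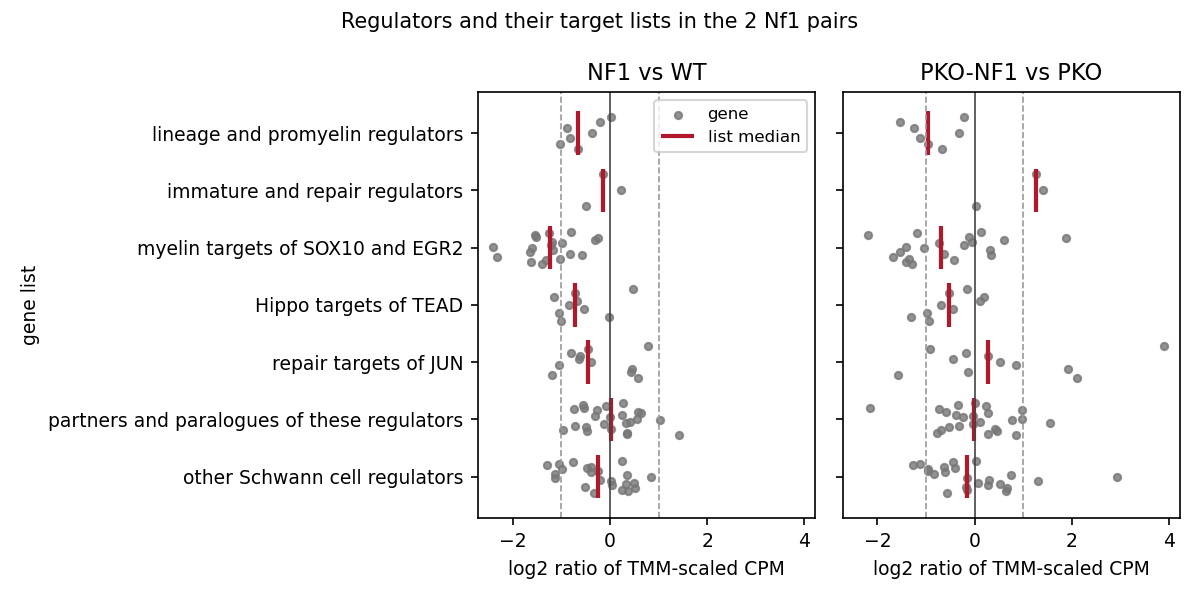
Log2 ratio of TMM-scaled CPM in NF1 vs WT (left) and PKO-NF1 vs PKO (right), with 1 grey point per measured gene, a red bar at each list's median, and dashed lines at 2-fold. The myelin target list has its median left of 0 in both panels, at -1.24 and -0.68, while the partner list is centred near 0.

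Partners and other regulators of Schwann cell state are read against 6.31% of genes lower and 10.4% higher in NF1 vs WT, and 9.7% and 5.2% between PKO-NF1 and PKO. Of 24 measured partners and paralogues, 2 were higher in NF1 vs WT (Ppp3cb and the RUNX partner Cbfb) and none lower, with a median log2 ratio of 0.02. In PKO-NF1 vs PKO Pou3f2, a paralogue of Pou3f1, was higher, Tead4 was lower and the median was -0.01. Pou3f2 was at 13.8 CPM in WT, 17.4 in NF1, 2.64 in PKO and 7.75 in PKO-NF1, the order of Runx2. Of 23 other regulators measured, 4 were lower in NF1 vs WT (Id4, Hey2, Srebf1 and Srebf2), and in PKO-NF1 vs PKO Srebf1 and Srebf2 were lower and the Notch effector Hes1 higher. Srebf1, a master regulator of lipid synthesis, was at 191 CPM in WT and 213 in PKO, against 78.0 in NF1 and 88.5 in PKO-NF1, with both Nf1-mutant libraries below both others, the order of 20.5% of all genes.

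P2ry14 status was compared in PKO vs WT and in PKO-NF1 vs NF1, pairs that reuse the same 4 libraries. In PKO vs WT Sox2 was 3.24-fold lower (2.51 to 4.22) and Runx2 6.06-fold lower (3.65 to 10.6), and none of the 10 was higher, where 15.3% of genes were called, 5.22% lower and 10% higher. In PKO-NF1 vs NF1 Sox10 was 2.08-fold lower (1.94 to 2.23), Tead1 3.93-fold lower (3.58 to 4.31) and Runx2 2.68-fold lower (1.90 to 3.86), and none was higher, where 21.7% of genes were called, 13.8% lower and 7.9% higher. Runx2 was thus the regulator called in both. Sox2 was 1.21-fold lower in PKO-NF1 vs NF1 with an interval of 1.00 to 1.47. Egr2 and Nab2 differed by at most 1.06-fold in either P2ry14 pair, and every one of those intervals included 1. With the length and GC trends removed Sox2 (4.43-fold) and Runx2 (5.28-fold) were still called lower in PKO vs WT, as were Tead1 (2.54-fold) and Runx2 (2.02-fold) in PKO-NF1 vs NF1, whereas Sox10 in the latter was 1.69-fold lower. In PKO vs WT 5 of 11 JUN repair targets were lower, Gdnf, Btc, Gfap, Ucn2 and Ncam1, and 2 higher, Gap43 and Cdh2 (median log2 ratio -0.767). Of these, Gdnf had 17 counts in WT and 2 in PKO, and reached 1 CPM only in WT and NF1. Ucn2 had 39 counts in WT and 6 in PKO. Between PKO-NF1 and NF1, Gap43 and Igfbp2 were higher and Gdnf and Shh lower (median 0.325). Of 14 Schwann cell lineage markers 6 were lower and none higher in PKO vs WT (median log2 ratio -0.87). Between PKO-NF1 and NF1 1 was lower and 1 higher (median -0.215). Of the 20 myelin targets of SOX10 and EGR2, 1 was lower and none higher in PKO vs WT (median 0.26). Between PKO-NF1 and NF1 8 were higher and none lower (median 0.94), while Sox10 was lower. How these differences relate to the regulators' ratios was not tested.

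**Figure D4:**
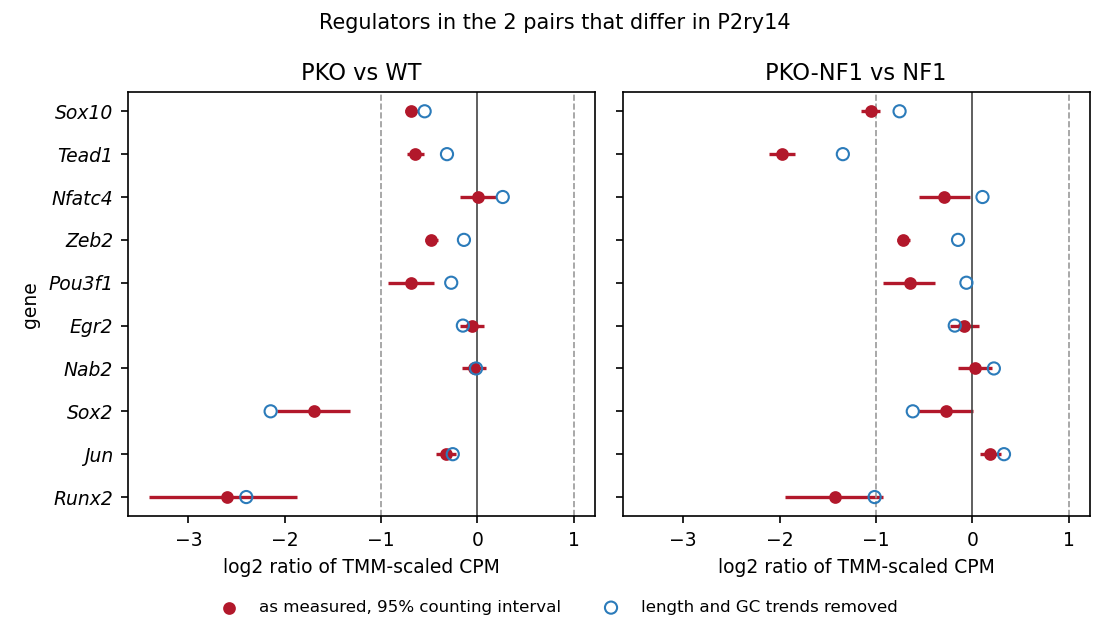
Log2 ratio of TMM-scaled CPM for each regulator in PKO vs WT (left) and PKO-NF1 vs NF1 (right), drawn as filled points with 95% counting intervals, with open points after removal of length and GC trends and dashed lines at 2-fold. Sox2 and Runx2 lie beyond 2-fold on the left panel, Sox10, Tead1 and Runx2 on the right, and Egr2 and Nab2 sit near 0 in both.

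With both mutations all 10 regulators were below WT. In PKO-NF1 vs WT 5 were called lower, Sox10, Tead1 (4.51-fold, 4.11 to 4.95), Nfatc4 (2.16-fold, 1.83 to 2.56), Pou3f1 (2.02-fold, 1.68 to 2.43) and Runx2 (2.29-fold, 1.59 to 3.33), where 32.1% of genes were called, 17.5% lower and 14.7% higher. The median log2 ratio of the 10 was -1.0 against 0.01 for all genes, and -0.47 with the length and GC trends removed, when Sox10 (2.35-fold) and Tead1 (2.56-fold) were the 2 called and Pou3f1 and Jun were on the higher side, 1.15-fold and 1.11-fold. Of the 10, 6 were lowest in PKO-NF1, where 30.3% of all genes were lowest, and 7 were highest in WT, where 28.5% of all genes were highest. Counts of Jun per count of Sox10 were 0.396 in WT and 0.509 in PKO, against 0.522 in NF1 and 1.24 in PKO-NF1.

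An additive model over the 4 libraries, fitted to 14105 genes with edgeR's quasi-likelihood test, tested each mutation. It has 1 residual degree of freedom, the interaction of the genotypes, and measures no spread between animals. For Nf1 status, 0 of the 10 regulators and 0 of all genes (0.0%) had an adjusted p under 0.05. At unadjusted p under 0.05 it called 4, Sox10, Nfatc4, Egr2 and Nab2, against 20.9% of genes, and the DESeq2 Wald test called 0 of the 10 adjusted, where it called 2.28% of genes, and 3 unadjusted, where it called 14%. Nab2 had a fitted log2 change of -0.99 (SE 0.21; lower in the mutant library of 2 of 2 pairs; edgeR adjusted p = 0.168) and Sox10 of -1.06 (SE 0.28; lower in 2 of 2; edgeR adjusted p = 0.18). The P2ry14 term called 0 of the 10 adjusted, where 0.0496% of genes were called, and 4 unadjusted, Sox10, Runx2, Pou3f1 and Tead1, against 25.2%. Runx2 had a fitted log2 change of -1.96 (SE 0.44; lower in 2 of 2 pairs; edgeR adjusted p = 0.142). By the DESeq2 Wald test the adjusted p of Runx2 was 0.0344, the one regulator called there, where 5.65% of genes were, with 3 at an unadjusted p under 0.05, where 18.5% of genes were, and over all alternatives it ran from 0.0344 to 0.789.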

How the data were processed

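Counts per gene symbol, in whole numbers, were deposited as a single table. Build mm10, HISAT2 2.0.5, featureCounts 1.5.2 and FastQC 0.11.7 are named, per the submitters' processing notes. Which annotation was used and how strand was treated is not stated in the labels or notes. TruSeq libraries were made from Trizol-extracted RNA of frozen nerves, per the labels' protocols. Each column was matched to a sample by its title.

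Counts were scaled with edgeR 4.0.16 TMM factors (R 4.3.3) to CPM. Ratios carry exact conditional (Clopper-Pearson) 95% intervals (scipy 1.17.1), which cover counting error only, as the labels name no molecular identifiers. Genes at 1 CPM in at least 1 library were compared, 14700 in all. The additive model (terms for Nf1 and P2ry14 status, genes at 1 CPM in 2 libraries, Benjamini-Hochberg adjustment over all genes) used edgeR glmQLFit and glmQLFTest, with the DESeq2 1.42.0 Wald test as an alternative. Its SE is the log2 change divided by the square root of F. Replicates are lacking, so no p-value was taken from a single pair. Both computations were run on simulated data. The simulated counts held less spread than the additive fit estimated, and larger changes than most regulators showed. They therefore do not show how either computation performs at the sizes reported here. Transcript length, GC content and positions came from GENCODE M21 (GRCm38), with 22750 symbols matched as written and 922 by way of a synonym in RefSeq. For patterns, log2(CPM + 0.5) was centred per gene among genes with a mean of 5 CPM or more.

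The 10 regulators and the 18 gene lists (228 entries, of which 4, Cyr61, Ctgf, Gpr126 and Emr1, were found under these older symbols) were chosen with earlier results of these data known. The genes named are all 10 regulators; per list, the 2 highest and 2 lowest in each Nf1 pair and the 2 most abundant; the 3 nearest patterns to Sox10, Egr2 and Jun; and Nf1 and P2ry14. Called list genes outside that rule and genes called in the P2ry14 pairs were named after their values were seen. So were Tead2, Ppp3ca and the overlapping genes (Stat6, Sox2ot, Supt3, Zeb2os). Genes that the rule covers are printed only where a result turns on them, and one of them is not reported here. Fibroblast markers had 0 of 10 called in both Nf1 pairs, perineurial markers 2 of 8 lower in NF1 vs WT and 1 higher and 1 lower in PKO-NF1 vs PKO, and melanocyte markers 0 of 2 measured in both. Macrophage markers had 2 of 14 higher and 1 lower in NF1 vs WT and 1 higher in PKO-NF1 vs PKO, skeletal muscle markers 14 of 14 higher, then 8 higher and 1 lower, and bone and cartilage markers 1 of 4 measured lower, then 0. Alternatives were DESeq2 size factors, total counts, other CPM filters, a 1.5-fold threshold, removal of length and GC trends (splines with 4 degrees of freedom each), and removal of muscle, adipocyte and ribosomal protein genes; for the model, a single genotype term, no filter and leaving out each library.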

Additional observations from a re-analysis of the deposited data

Results flagged for a closer look

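For Jun the difference with P2ry14 status ran in opposite directions in the 2 Nf1 backgrounds, each beyond counting error. Its log2 ratio was 0.19 in PKO-NF1 vs NF1 and -0.32 in PKO vs WT. With length and GC trends removed these were 0.33 and -0.256. Scaled by total counts they were 0.026 and -0.783, so the rise in PKO-NF1 vs NF1 depends on the scaling. The difference was not tested against a spread between animals, with 1 library in each genotype, and both ratios are under 2-fold.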

How the results depend on the processing

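Of 350 ratios of single regulators read again under an alternative, 322 kept their call or lack of one. Another 21 became called with the same direction and 6 lost their call with the same direction. No filter, the 5 CPM filter and the 1.5-fold threshold leave a ratio itself unchanged. The filters therefore could not move a regulator's call, and the looser threshold could only add calls, so these settings say nothing on the stability of the ratios. The sign turned in 7 with length and GC trends subtracted and in 3 scaled by total counts. One of these was a called ratio, Pou3f1 in PKO-NF1 vs WT, at a log2 ratio of 0.205 with the trends subtracted, and the others were uncalled under both settings. With those trends subtracted the number of regulators called went from 1 to 0 in NF1 vs WT, from 5 to 3 in PKO-NF1 vs PKO and from 5 to 2 in PKO-NF1 vs WT. Scaled by total counts it was 3 in NF1 vs WT, 5 in PKO vs WT (2 as reported) and 8 in PKO-NF1 vs WT, all lower, where the median of all genes moved to -0.22, -0.54 and -0.37. Under that scaling the share of called genes that were higher went from 62.3% to 41.2% in NF1 vs WT, from 65.7% to 21.6% in PKO vs WT, from 36.4% to 22.5% in PKO-NF1 vs NF1 and from 45.6% to 19.7% in PKO-NF1 vs WT, and PKO vs WT went to 50% with the trends subtracted. The number of all genes called went from 2190 to 1152 in PKO-NF1 vs PKO and from 4726 to 1887 in PKO-NF1 vs WT with the trends subtracted, and from 2242 to 3477 in PKO vs WT scaled by total counts. At a 1.5-fold threshold the number called was 4 in NF1 vs WT, 5 in PKO vs WT, 5 in PKO-NF1 vs NF1 (3 as reported) and 8 in PKO-NF1 vs WT, and over all genes 5266, 4630, 6475 and 8006, with 5250 in PKO-NF1 vs PKO. DESeq2 size factors, no filter, a 5 CPM filter and removal of muscle, adipocyte and ribosomal protein genes from the scaling left these 5 numbers as they were. In the additive model the DESeq2 Wald test called 1 regulator at the P2ry14 term (Runx2), and every edgeR alternative, including those without 1 library, called 0 at either term. Over all genes the Nf1 term called 0 with edgeR, 284 with the DESeq2 Wald test, 46 with no filter and 83 without the PKO-NF1 library. The P2ry14 term called 7, 720, 108 and 0 in the same order, 349 without WT, 39 without NF1, 0 without PKO and 0 with that term alone. No paired analysis was possible because each genotype has 1 library and the labels give no replicate numbers. The counts behind Runx2 (18 to 142) and Sox2 (80 to 259) limit the precision of their ratios.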
